A study of Mus musculus with 12 samples.

Results

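The integrated stress response (ISR) genes described here are *Atf4*, *Atf5*, *Ddit3*, *Trib3*, *Ppp1r15a*, *Cebpg*, *Ddit4* and *Sesn2*. The 8 genes were taken by symbol, all of them were listed among the 14159 genes of the deposited normalized counts, and all of them passed the filter of a mean of at least 10 normalized counts that left 13404 genes for testing. Poly(A) RNA was sequenced from whole inguinal white adipose tissue (iWAT) of C57BL/6 mice in 12 libraries, 3 in each of 4 groups. Atf4WT mice carried floxed *Atf4* alleles without Cre, and Atf4AKO mice, their littermates, carried the same floxed alleles together with *Adipoq*-Cre, so that deletion was directed to adipocytes and not to the other cells of the fat pad. Mice of each genotype were kept at room temperature (RT) or exposed to 5 °C for 24 h (cold), and RT is given as 22 °C in the methods but as about 24 °C in the discussion. The age of these mice and the exons flanked by loxP sites are not given in the sources used here.

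In the ISR, kinases that sense different stresses phosphorylate the translation initiation factor eIF2, which lowers protein synthesis in general while mRNAs with upstream open reading frames, such as those of *Atf4*, *Atf5*, *Ddit3* and *Ppp1r15a*, are translated better. ATF4 then dimerizes with C/EBP proteins on composite elements in genes for amino acid metabolism and stress control. Control of ATF4 and ATF5 through translation does not show in RNA counts, so the values below are transcript levels only.

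The genes have different roles. *Atf4* and *Atf5* encode related bZIP transcription factors, *Ddit3* encodes the bZIP factor CHOP, and *Cebpg* encodes C/EBPγ, a dimer partner of ATF4. *Trib3* encodes a pseudokinase, *Ppp1r15a* encodes GADD34, the subunit that directs protein phosphatase 1 to eIF2, and *Ddit4* and *Sesn2* encode REDD1 and Sestrin2, both inhibitors of mTORC1 signaling. In the GRCm38 annotation (mm10, GENCODE), *Atf4* lies at chr15:80255184-80257541 on the plus strand and *Atf5* at chr7:44812256-44816658 on the minus strand. *Ddit3* lies at chr10:127290774-127296288 on the plus strand, and *Ppp1r15a* and *Cebpg* lie at chr7:45522916-45526268 and chr7:35046422-35056573, both on the minus strand. As whole genes, *Atf5* shares 571 bases with *Nup62* and 272 bases with *Il4i1* on the opposite strand, and *Ppp1r15a* shares 717 bases with *Tulp2*. *Ddit3* shares 68 bases with *Mars* and *Cebpg* 353 bases with *Gm45095*. These stretches can include introns. Exons overlap in each of these pairs, but the bases shared by exons were not counted. The libraries were strand-specific, but whether the counting used the strand is not given in the sources used here, so reads from these stretches may belong to either gene.

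Promoter sequences are shown for *Atf4* and for the 4 genes that rose with cold in Atf4WT iWAT, as the 100 bases before the RefSeq start, together with the 30 bases of *Trib3* that hold its motif match. They are RefSeq sequences of GRCm38.p6 written 5′ to 3′ on the strand of the gene, and capitals mark a match to 1 of the motifs searched. The windows lie at chr15:80255084-80255183 (*Atf4*, plus strand), chr7:44816659-44816758 (*Atf5*, minus strand), chr10:127290693-127290792 (*Ddit3*, plus strand), chr7:45526269-45526368 (*Ppp1r15a*, minus strand), chr7:35056567-35056666 (*Cebpg*, minus strand) and chr2:152344028-152344057 (*Trib3*, minus strand). The RefSeq start lies 19 bases inside the gene at the GENCODE position given above for *Ddit3* and 7 bases inside it for *Cebpg*, so the ends of these 2 windows overlap the gene as GENCODE annotates it.
Atf4: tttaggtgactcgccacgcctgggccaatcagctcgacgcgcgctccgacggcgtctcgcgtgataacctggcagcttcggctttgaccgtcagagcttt
Atf5: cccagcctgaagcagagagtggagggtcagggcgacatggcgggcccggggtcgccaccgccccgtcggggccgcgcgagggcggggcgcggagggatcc
Ddit3: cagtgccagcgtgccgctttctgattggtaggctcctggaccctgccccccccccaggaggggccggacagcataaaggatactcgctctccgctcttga
Ppp1r15a: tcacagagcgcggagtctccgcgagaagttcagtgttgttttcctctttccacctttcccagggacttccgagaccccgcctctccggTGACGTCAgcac
Cebpg: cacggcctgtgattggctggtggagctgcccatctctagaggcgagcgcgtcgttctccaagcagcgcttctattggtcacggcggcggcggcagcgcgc
Trib3: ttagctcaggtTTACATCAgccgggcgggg

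Both strands of the window from 250 bases before to 50 bases after each RefSeq start were searched for TGATGNAA (a form of the C/EBP-ATF response element) and for TGACGTCA (the cAMP response element). RefSeq windows matched all 8 genes. TGATGNAA was found in 3.97% of the 32851 windows of all genes, and among the 8 genes it was found only in *Trib3*, as the reverse complement TTACATCA at positions 15 to 22 after the RefSeq start, which is 28 bases before the GENCODE start of the gene, so that by GENCODE the match is at positions −14 to −7. TGACGTCA was found in 1.79% of all windows and only in *Ppp1r15a* among the 8, at positions −12 to −5. The 2 motifs do not overlap each other in these windows, and elements elsewhere in the genes were not searched.

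Each library held between 25719476 and 29105147 reads in listed genes, and values are given as normalized counts, the reads of a gene divided by the size factor of the library. The 8 white adipocyte markers (*Adipoq*, *Plin1* and others) were all listed, with summed levels between 614069 and 972593 normalized counts and *Cfd* as the most abundant. Markers of other cell types moved with some groups. The lymphocyte score, the mean of log2(normalized count + 1) over 16 markers of B and T cells, lay between 7.43 and 9.86 in cold Atf4WT libraries and between 3.49 and 5.14 in cold Atf4AKO libraries, with no overlap. At RT it lay between 3.71 and 7.31 in Atf4WT and between 3.84 and 5.32 in Atf4AKO libraries, which overlapped. The 3 listed skeletal muscle markers summed to 71043 normalized counts in Atf4WT RT replicate 2 and 25584 in Atf4WT cold replicate 0, against at most 2678 in the other libraries, and 0 of 5 epithelial markers were listed. The summed level of 6 fibroblast and progenitor markers was lower in the cold without overlap in both genotypes, at 20463 to 55724 against 80568 to 87392 normalized counts at RT in Atf4WT and at 28922 to 42645 against 67024 to 92276 in Atf4AKO libraries. That of 6 endothelial markers was also lower in the cold without overlap in Atf4WT libraries (16127 to 20156 against 20583 to 21991) and overlapped in Atf4AKO libraries. The 7 listed of 8 macrophage markers summed to 4766 normalized counts in 1 cold Atf4AKO library, where the median of that group was 27568. The part of fibroblast, endothelial and macrophage markers in the differences with cold and between genotypes was not tested.

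*Atf4* was the deleted gene and its transcripts were reduced in Atf4AKO iWAT but remained detectable in every library. At RT the normalized counts were 5669, 4670.3 and 4107 in the 3 Atf4WT libraries and 1594, 1469.6 and 1639 in the 3 Atf4AKO libraries. After cold exposure they were 7644, 7511 and 5756 in Atf4WT and 1578, 788 and 1179.8 in Atf4AKO libraries. The genotypes did not overlap at either temperature, and every Atf4AKO library lay below every Atf4WT library. The log2 difference between Atf4AKO and Atf4WT was −2.60 in the cold (SE 0.22, limma adjusted p = 0.000644), which left 16.4% of the Atf4WT level (95% interval 11.8% to 22.9%). At RT it was −1.61 (SE 0.22), which left 32.8% (95% interval 23.6% to 45.6%). The adjusted p from limma at RT was 0.0762.

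The remaining *Atf4* reads in Atf4AKO libraries are summed over the gene, which has 3 exons of 502, 315 and 908 bases, with the coding sequence in exons 2 and 3. Reads from cells without Cre, from exons outside the deleted part and from adipocytes that kept the allele therefore cannot be told apart in these values. In whole tissue, fewer cells of a type and less RNA per cell cannot be told apart either, and this holds for every gene below.

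*Atf5*, which was not targeted, was lower in Atf4AKO iWAT. At RT the normalized counts were 4605, 4636 and 4295 in Atf4WT and 2796, 2679 and 3001 in Atf4AKO libraries. After cold exposure they were 10742, 10729 and 8372 in Atf4WT and 4447, 5739 and 4982 in Atf4AKO libraries. Again the genotypes did not overlap at either temperature, while the cold Atf4AKO libraries lay within or above the range of the Atf4WT libraries at RT. The log2 difference between genotypes was −0.97 in the cold (SE 0.12, limma adjusted p = 0.0156), which is 50.9% of the Atf4WT level (95% interval 42.7% to 60.7%). At RT it was −0.68 (SE 0.12, limma adjusted p = 0.344), which is 62.6% of the Atf4WT level (95% interval 52.5% to 74.6%).

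These were the 2 of 8 genes called between genotypes in the cold, both lower, where 0.0298% of all tested genes (4 of 13404) were called. *Atf4* is the deleted gene, so its part in this and later counts between genotypes was set by the design. Of the untargeted genes among the 8, *Atf5* alone was called in the cold. At RT, 0 of the 8 were called with limma, where 0.00746% of all tested genes (1 of 13404) were called. There 2 of the 8 had an unadjusted p under 0.05, as did 205 of all 13404 tested genes. edgeR called 0 and DESeq2 called 2 of the 8 at RT, where they called 1 of 13404 and 4 of 14159 genes. Both tools called *Atf4* and *Atf5* in the cold, where edgeR called 3 of 13404 genes and DESeq2 591 of 14159. By a second rule, which asks for an unadjusted p under 0.05 with more than a 1.5-fold change, 3 of the 8 genes (*Atf4*, *Atf5* and *Trib3*) passed in the cold, all lower, against 6.4% of all tested genes, and *Atf4* and *Atf5* passed at RT against 0.463%. The calls in the cold rested on the groups used in the fit, as 0 of the 8 were called when only the cold libraries were modeled, with adjusted p = 0.0598 for *Atf4* and 0.109 for *Atf5*. In that fit 0 of all 13404 tested genes were called. With this lymphocyte score as a term, the differences in the cold were −2.68 for *Atf4* and −1.25 for *Atf5*, both with adjusted p = 0.221. The fit with the score likewise called 0 of all 13404 tested genes in this comparison. *Atf5* also lost its call without Atf4WT cold replicate 1 (adjusted p = 0.127), Atf4AKO cold replicate 0 (0.0518) or Atf4AKO cold replicate 2 (0.132), with log2 differences between −1.09 and −0.89 over the 6 libraries left out in turn.

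**Figure D1:**
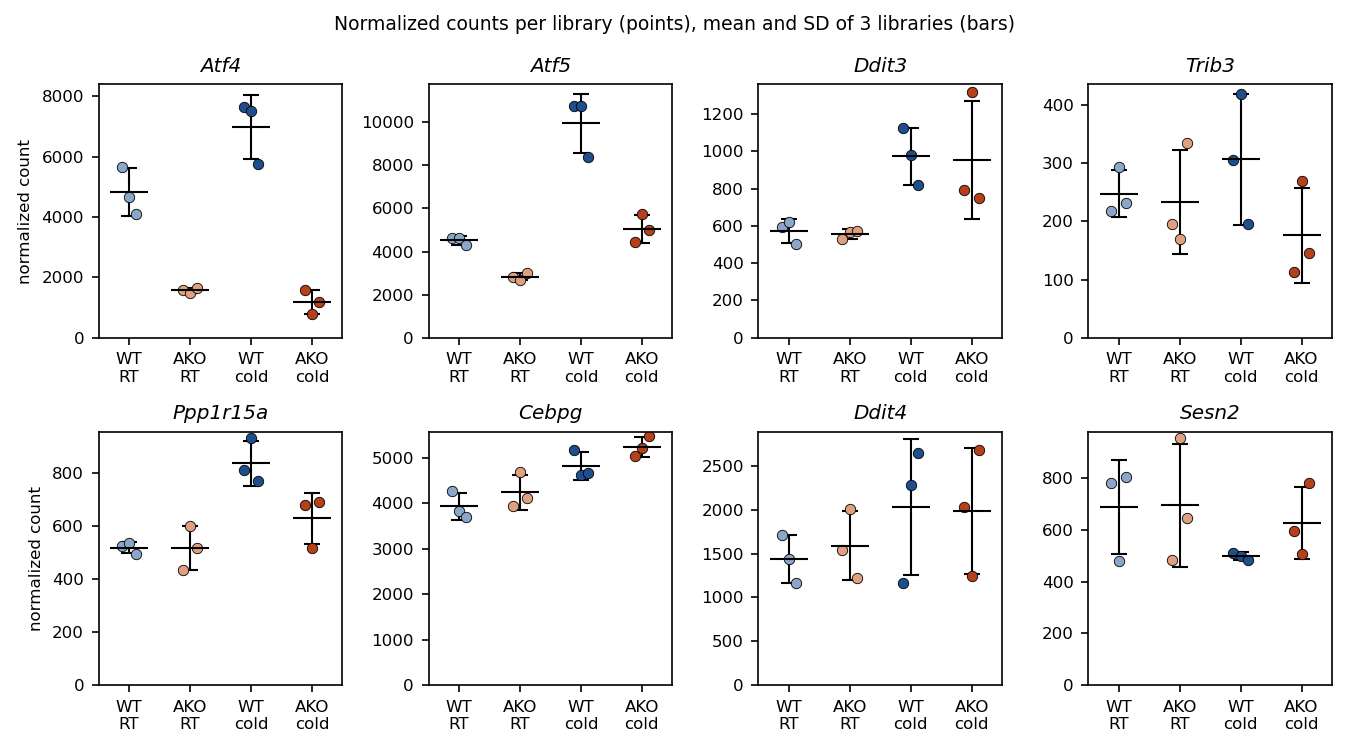
Normalized counts (vertical axis, linear and starting at 0) of the 8 genes in Atf4WT (WT) and Atf4AKO (AKO) iWAT at RT and after cold exposure. Points are libraries, and bars are the mean and SD of 3 libraries. *Atf4* and *Atf5* are lower in Atf4AKO than in Atf4WT libraries at both temperatures without overlap, and *Atf5* is higher after cold exposure in both genotypes.

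The other 6 genes showed no called difference between genotypes. *Ddit3* had 1124, 979 and 818 normalized counts in cold Atf4WT libraries and 789.8, 1317 and 752 in cold Atf4AKO libraries. These ranges overlapped, and the log2 difference was −0.07 with a 95% interval from −0.50 to 0.36. With the lymphocyte score as a term it was −0.64, and the genotype difference in its cold response went from −0.03 to −0.56, neither of them called. At RT the genotype difference was −0.04, with values between 503 and 623 in Atf4WT and between 527 and 574 in Atf4AKO libraries.

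*Ppp1r15a* had 810.5, 931 and 768 normalized counts in cold Atf4WT libraries and 680.3, 516 and 689.8 in cold Atf4AKO libraries. The genotypes did not overlap in the cold, so that 3 of the 8 genes did not overlap, all with lower Atf4AKO values, against 16.5% of all tested genes in either direction and 7.84% with lower Atf4AKO values. This count of 3 includes *Atf4*, the deleted gene. The log2 difference of *Ppp1r15a* was −0.42 (SE 0.14, limma adjusted p = 0.237). At RT it was −0.02 with overlapping libraries, and 2 of the 8 genes, *Atf4* and *Atf5*, did not overlap there against 6.3% of all tested genes.

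*Trib3* had the lowest level per kilobase of exon of the 8 genes in 3 of the 4 groups. In the cold it had 306, 419 and 195 normalized counts in Atf4WT and 114, 269 and 146 in Atf4AKO libraries. The libraries overlapped, and the log2 difference was −0.82 with a 95% interval from −1.62 to −0.03 (limma adjusted p = 0.401). With the lymphocyte score as a term it was −1.27, again not called. At RT the difference was −0.14, with a 95% interval from −0.94 to 0.66.

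*Cebpg* was higher by 0.12 on the log2 scale in cold Atf4AKO iWAT (95% interval −0.07 to 0.32) and by 0.11 at RT (−0.08 to 0.30). For *Ddit4*, the differences were −0.02 in the cold (−0.76 to 0.72) and 0.13 at RT. For *Sesn2* they were 0.31 in the cold (−0.26 to 0.88) and 0.00 at RT. The libraries of the genotypes overlapped for these 3 genes at both temperatures, and in the cold the intervals of *Ddit4* and *Sesn2* hold differences of over 1.5-fold. Over the 8 genes, the median log2 difference between genotypes was −0.24 in the cold and −0.03 at RT, beside 0.05 and 0.01 over all tested genes. The medians over the 8 genes include *Atf4*, whose lower values follow from the deletion, so they do not describe the untargeted genes alone.

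Cold exposure raised *Atf5* in both genotypes. In Atf4WT iWAT the mean normalized count went from 4512 ± 189 (SD, n = 3) at RT to 9948 ± 1365 (SD, n = 3), a 2.19-fold rise with a log2 difference of 1.13 (SE 0.12, limma adjusted p = 0.000106). In Atf4AKO iWAT it went from 2826 ± 163 to 5056 ± 649 (SD, n = 3), a 1.78-fold rise with a log2 difference of 0.83 (SE 0.12, limma adjusted p = 0.000652). The cold libraries lay above the RT libraries in each genotype without overlap. *Atf5* was called in the same direction in each genotype under all alternatives tried.

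*Ddit3* also rose in both genotypes. Its normalized counts at RT were 595, 623 and 503 in Atf4WT and 527, 567 and 574 in Atf4AKO libraries, and every cold library given above exceeded the RT libraries of its genotype. The log2 differences were 0.76 in Atf4WT (SE 0.20, limma adjusted p = 0.0136) and 0.73 in Atf4AKO iWAT (SE 0.20, limma adjusted p = 0.0195). The call in Atf4AKO iWAT was lost without Atf4AKO RT replicate 0 (0.69, adjusted p = 0.0658).

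*Cebpg* rose by less, with log2 differences of 0.29 in Atf4WT (SE 0.09, limma adjusted p = 0.0255) and 0.31 in Atf4AKO iWAT (SE 0.09, limma adjusted p = 0.0246). Its normalized counts went from 4271, 3825 and 3702 at RT to 5181, 4621 and 4657 in the cold in Atf4WT libraries. In Atf4AKO libraries they went from 3937, 4682 and 4107 to 5040.4, 5216 and 5481. Cold and RT libraries did not overlap in either genotype, but the call was lost in 3 of 6 fits that left out 1 library in Atf4WT and in 4 of 6 in Atf4AKO iWAT. In Atf4AKO iWAT it was also lost when only the Atf4AKO libraries were modeled (0.31, adjusted p = 0.0575). One of the fits with a library left out lacked Atf4WT RT replicate 2, the library with the highest muscle markers, and gave 0.25 (adjusted p = 0.0810).

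*Ppp1r15a* rose in Atf4WT iWAT by a log2 difference of 0.69 (SE 0.14, limma adjusted p = 0.00498), from 526, 534 and 494 normalized counts at RT to the cold values above, without overlap. In Atf4AKO iWAT the RT values were 433, 599 and 516, which overlapped the cold values, and the log2 difference was 0.28 (SE 0.14, limma adjusted p = 0.169). The difference between these cold responses was −0.40 (95% interval −0.85 to 0.05, limma adjusted p = 0.794), so the genotypes were not shown to differ in it. With the lymphocyte score as a term, the rise in Atf4WT iWAT was 0.77 with adjusted p = 0.0574.

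*Atf4* had a log2 difference with cold of 0.53 in Atf4WT iWAT (1.45-fold, SE 0.22, limma adjusted p = 0.0805) and of −0.46 in Atf4AKO iWAT (SE 0.22, limma adjusted p = 0.137). In Atf4WT iWAT the cold libraries all lay above the RT libraries, whereas the Atf4AKO libraries overlapped. The Atf4AKO difference lay between −0.70 and −0.20 when 1 library was left out, and it was called without Atf4AKO cold replicate 0 (−0.70, adjusted p = 0.0254). The Atf4WT difference passed the threshold with DESeq2 (adjusted p = 0.0444) and when only the Atf4WT libraries were modeled (0.0449). The cold response of *Atf4* in Atf4AKO minus that in Atf4WT iWAT was −0.997 (SE 0.31, 95% interval −1.67 to −0.33, limma adjusted p = 0.478).

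*Trib3*, *Ddit4* and *Sesn2* showed no called change with cold. The log2 differences of *Trib3* were 0.25 in Atf4WT and −0.44 in Atf4AKO iWAT, and its RT values of 219, 294 and 231 in Atf4WT and 196, 169 and 335 in Atf4AKO libraries overlapped the cold values. *Ddit4* spread widely in the cold, with 1164, 2287 and 2653 normalized counts in Atf4WT and 2039, 1243 and 2682 in Atf4AKO libraries, and its log2 differences were 0.43 and 0.28. *Sesn2* had 781, 478 and 802 normalized counts in Atf4WT libraries at RT and 512, 500.3 and 484 in the cold. Its log2 differences were −0.42 in Atf4WT and −0.11 in Atf4AKO iWAT, with overlapping libraries in each.

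In Atf4WT iWAT, 4 of the 8 genes (*Atf5*, *Ddit3*, *Ppp1r15a* and *Cebpg*) were thus called with cold, all higher, where 31.9% of all tested genes were called and 17% were called higher. In Atf4AKO iWAT, 3 of the 8 (*Atf5*, *Ddit3* and *Cebpg*) were called, all higher, where 25.9% of all tested genes were called and 14.8% were called higher. Libraries did not overlap for 5 of the 8 genes in Atf4WT (46.8% of all tested genes) and for 3 of the 8 in Atf4AKO iWAT (41.7%). The lymphocyte score did not overlap between cold and RT in Atf4WT iWAT (lowest cold 7.43, highest RT 7.31) and overlapped in Atf4AKO iWAT. With it as a term, 1824 of 13404 tested genes were called with cold in Atf4WT and 3572 in Atf4AKO iWAT. In that fit 3 of the 8 genes (*Atf5*, *Ddit3* and *Cebpg*) were called with cold in each genotype. In Atf4WT iWAT their log2 differences were then 1.36, 1.22 and 0.51. Over the 8 genes the median log2 difference with cold was 0.48 in Atf4WT and 0.28 in Atf4AKO iWAT, beside 0.00 and −0.03 over all tested genes. For the difference in cold response, limma, edgeR and DESeq2 called 0 of the 8 genes, while DESeq2 called 128 of all 14159. Of the 8, 1 (*Atf4*) had an unadjusted p under 0.05 with limma, as did 928 of all 13404 tested genes. Among all tested genes, limma called 0% for this difference, and *Atf4* alone of the 8 passed the second rule against 4.63% of all tested genes. With cold, 3 of the 8 passed that rule in Atf4WT iWAT (*Atf5*, *Ddit3* and *Ppp1r15a*) against 21.2% of all tested genes, and 2 in Atf4AKO iWAT (*Atf5* and *Ddit3*) against 17.2%.

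**Figure D2:**
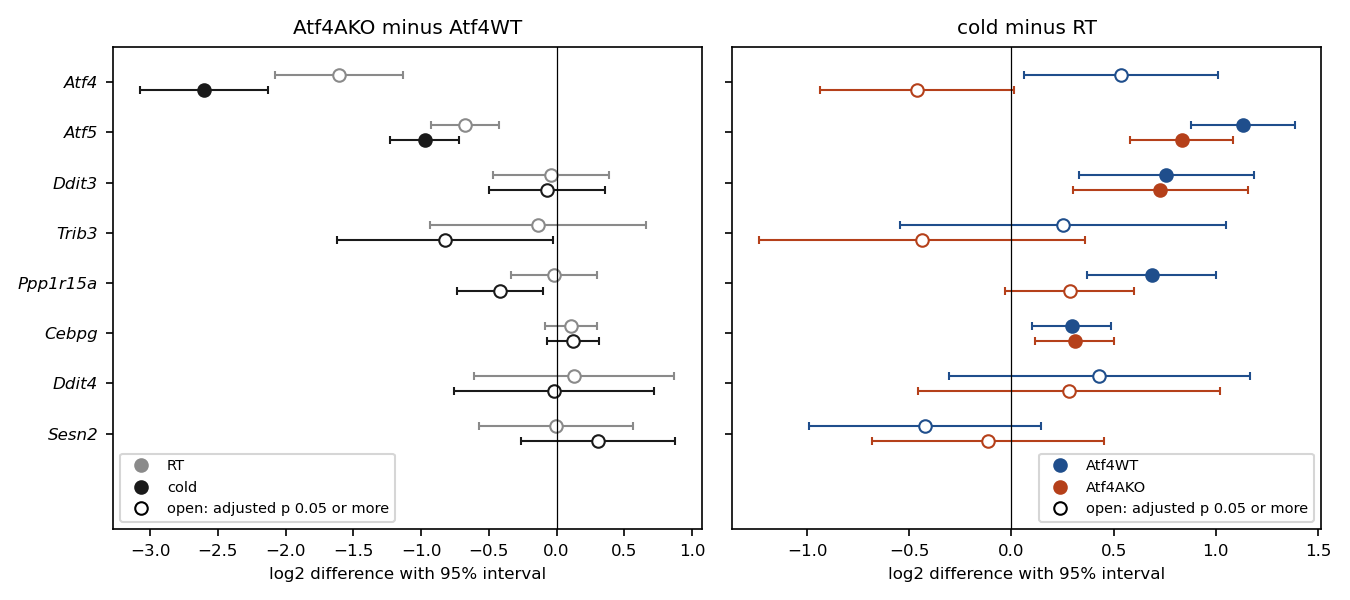
Log2 differences (horizontal axis) with 95% intervals from limma for the 8 genes, between genotypes at RT and in the cold (left) and between cold and RT in each genotype (right). Filled points have an adjusted p under 0.05 and open points do not. On the left, only *Atf4* and *Atf5* in the cold are filled, at −2.60 and −0.97, and on the right *Atf5*, *Ddit3* and *Cebpg* are filled in both genotypes and *Ppp1r15a* in Atf4WT only.

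Per kilobase of exon, the order of *Atf4* and *Atf5* differed between the groups. In Atf4WT iWAT at RT, *Atf4* had the highest level of the 8 genes with 2792 ± 458 normalized counts per kilobase (SD, n = 3), followed by *Atf5* with 2264 ± 94.6. In the cold, *Atf5* was the highest with 4991 ± 685, followed by *Atf4* with 4041 ± 611. The ratio of *Atf5* to *Atf4* per kilobase was between 0.70 and 0.90 in the 3 Atf4WT libraries at RT and between 1.22 and 1.26 in the cold. It was between 1.52 and 1.58 in Atf4AKO libraries at RT and between 2.44 and 6.30 in the cold, so the 4 groups did not overlap in this ratio. The divisor is the deleted gene, so a higher ratio in Atf4AKO libraries is built into the design. The full exon length of *Atf4* was used in every group, although the deleted exons are not known here.

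*Ddit4*, *Cebpg* and *Ddit3* followed in each Atf4WT group, with 821 ± 154, 786 ± 59.8 and 644 ± 70.7 normalized counts per kilobase at RT. In the cold these were 1159 ± 442, 963 ± 62.7 and 1094 ± 172. At RT *Ddit4* and *Cebpg* differed by less than either SD, and *Cebpg* and *Ddit3* by more than either. In the cold *Ddit4* and *Ddit3* differed by less than either SD, and *Ddit3* and *Cebpg* by more than that of *Cebpg* only. *Sesn2*, *Ppp1r15a* and *Trib3* were the lowest, with 198 ± 52.1, 177 ± 7.22 and 122 ± 19.8 in Atf4WT iWAT at RT. In cold Atf4AKO iWAT, *Atf4* took the fifth place with 685 ± 229, while *Atf5* remained the highest with 2537 ± 326. Exon lengths are those of all annotated exons of a gene together, which can exceed the length of the expressed transcript.

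The genes whose centred log2 profile over the 12 libraries was nearest to that of *Atf4*, among 11842 genes with a mean of at least 50, were *Rps19bp1*, *Mthfd2* and *Xlr3b*. Their root mean square distances were 0.38, 0.55 and 0.66, beside 1.11 for the spread of *Atf4* around its own mean. *Rps19bp1* lies at chr15:80260615-80264315 on the minus strand, with 3073 bases between it and *Atf4*. Its mean normalized counts were 540 in Atf4WT and 103 in Atf4AKO libraries at RT and 730 and 109 in the cold. The single Atf4AKO library with the highest value had 141, below the lowest Atf4WT library with 496. Its log2 difference between genotypes was −2.38 at RT (limma adjusted p = 0.00141) and −2.76 in the cold (adjusted p = 0.000308), so that it was the gene called at RT and 1 of the 4 called in the cold.

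*Mthfd2*, a mitochondrial folate enzyme, had means of 164 and 116 normalized counts in Atf4WT and Atf4AKO libraries at RT and 396 and 94.7 in the cold. The genes nearest to *Atf5* were *Syngr1*, *Slc20a1* and *Gmnn*, at distances of 0.34, 0.35 and 0.35 beside 0.66 for the spread of *Atf5* itself. These 3 genes rose with cold in both genotypes with log2 differences between 0.65 and 1.13, and none of them was called between genotypes, with limma adjusted p-values of at least 0.369. Their log2 differences between genotypes lay between −0.39 and −0.20 over both temperatures. *Syngr1* lies on the same chromosome as the deleted gene, at chr15:80091334-80119501 on the plus strand, with 135682 bases between it and *Atf4*. In these profiles the points share libraries and groups, so likeness describes the pattern only.

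Family members of the 8 genes gave 10 listed genes (*Cebpe* was not listed). For this and the following lists, the share of all tested genes called with cold was 17% higher and 14.9% lower in Atf4WT, and 14.8% higher and 11% lower in Atf4AKO iWAT. Between genotypes in the cold, limma called 4 and edgeR 3 of 13404 genes, whereas DESeq2 called 591 of 14159. For Atf4AKO against Atf4WT in the cold, limma, edgeR and DESeq2 called 0 of the 10, and 1 had an unadjusted p under 0.05. Among all 13404 tested genes, 1571 had an unadjusted p under 0.05 in this comparison, a count that applies to the following lists as well. With cold, 3 were called in Atf4WT iWAT, all higher: *Cebpb* (0.95 on the log2 scale), *Trib1* (0.57) and *Ppp1r15b* (0.49), which encodes the constitutive partner of protein phosphatase 1. In Atf4AKO iWAT, *Cebpb* (0.79) and *Trib1* (0.62) were called higher and *Sesn3* lower (−0.79). *Cebpb* encodes another dimer partner of ATF4.

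Upstream of ATF4, the list of eIF2 kinases, eIF2 and eIF2B subunits and related regulators had 19 tested genes. In Atf4WT iWAT, 3 were called with cold, all higher, a share near the 17% of all tested genes called higher, among them the eIF2B subunits *Eif2b4* (0.55) and *Eif2b1* (0.33). In Atf4AKO iWAT, 6 were called higher, with *Eif2b4* (0.53) and *Impact* (0.37), an inhibitor of GCN2 activation, and 1 lower, *Eif2ak3* (−0.40), which encodes the kinase PERK, where 14.8% of all tested genes were called higher and 11% lower. In the cold, limma and edgeR called 0 of the 19 between genotypes, DESeq2 called 1 (*Impact*, 0.27) and 2 had an unadjusted p under 0.05, and the median difference was 0.09 with a range from −0.11 to 0.27.

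Known targets of ATF4 in amino acid and folate metabolism moved both ways with cold. Of 14 tested enzymes, 3 were called higher and 3 lower in Atf4WT iWAT, and 1 higher and 4 lower in Atf4AKO iWAT. *Asns*, which makes asparagine, rose by 0.75 in Atf4WT and by 0.83 in Atf4AKO iWAT. *Phgdh*, the first enzyme of serine synthesis, fell by 1.30 and by 1.21, and *Pycr1*, an enzyme of proline synthesis, fell by 2.37 and by 2.14 on the log2 scale. The median over the 14 was −0.01 in Atf4WT and −0.36 in Atf4AKO iWAT.

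Between genotypes in the cold, limma and edgeR called 0 of the 14 enzymes and 4 had an unadjusted p under 0.05. These 4, named after their values were seen, had a fold change over 1.5 with lower values in Atf4AKO iWAT, a threshold that 6.04% of all tested genes passed in that direction. They were *Mthfd2* (−2.08, adjusted p = 0.0648), *Mthfd1l* (−2.05, adjusted p = 0.0695), *Shmt2* (−0.59, adjusted p = 0.0695) and *Aldh18a1* (−1.15, adjusted p = 0.141), and DESeq2 called all 4. The first 3 are enzymes of mitochondrial folate metabolism and *Aldh18a1* acts in proline synthesis. The libraries of the genotypes did not overlap for any of the 4, beside 7.84% of all tested genes without overlap and with lower Atf4AKO values. As the 4 were chosen by their difference in this same comparison, the lack of overlap adds no separate evidence.

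Of 9 tested amino acid transporters, 3 were called higher with cold in each genotype, and they were *Slc3a2*, *Slc38a2* and *Slc7a6* in both. *Slc3a2*, the heavy chain shared by several transporters, rose by 1.00 in Atf4WT and 1.22 in Atf4AKO iWAT, and *Slc1a4* was called lower in Atf4WT iWAT (−0.70). For genotype in the cold, limma and edgeR called 0 of the 9, 4 had an unadjusted p under 0.05, and DESeq2 called *Slc7a5* (−1.27, limma adjusted p = 0.131) and *Slc7a1* (−0.99, limma adjusted p = 0.106). With the lymphocyte score as a term, these differences were −1.41 for *Mthfd2*, −1.06 for *Mthfd1l*, −0.26 for *Shmt2*, −0.14 for *Aldh18a1*, −0.46 for *Slc7a5* and 0.06 for *Slc7a1*. Of these 6 genes, 1 (*Mthfd2*) passed the fold and p threshold, and none was called (limma adjusted p = 0.9998 for each). That fit called 0 of 13404 tested genes, and 411 had an unadjusted p under 0.05. The 6 genes had been named for their differences in the same comparison.

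Of 13 tested tRNA synthetase and tRNA export genes, 5 were called higher with cold in Atf4WT and 4 in Atf4AKO iWAT. *Gars*, the glycyl-tRNA synthetase, rose by 0.84 and 0.80, and *Iars*, the isoleucyl-tRNA synthetase, by 0.79 and 0.69. In cold Atf4AKO against Atf4WT iWAT, limma and edgeR called 0 of the 13 and DESeq2 called *Yars* (−0.35) and *Cars* (−0.48), while 4 had an unadjusted p under 0.05 and the median was −0.12. Of 16 other targets of ATF4 or CHOP, 2 were called higher and 3 lower with cold in Atf4WT iWAT, and 3 higher and 1 lower in Atf4AKO iWAT. *Fgf21*, a stress-induced hormone, rose by 2.63 in Atf4WT and 1.80 in Atf4AKO iWAT from RT means of 6.59 and 6.06 normalized counts. *Eif4ebp1*, which encodes a translation repressor, fell by 0.71 and by 0.72. All 3 tools called 0 of the 16 between genotypes in the cold, and 1 had an unadjusted p under 0.05.

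*Ddit4* and *Sesn2* act on mTORC1, and 19 genes of this pathway were tested beside them. With cold, 6 were called higher and 2 lower in Atf4WT iWAT, and 7 higher and 1 lower in Atf4AKO iWAT, where 31.9% and 25.9% of all tested genes were called. *Mtor* itself rose by 0.70 and 0.86, and *Castor1*, an arginine sensor that restrains mTORC1, fell by 1.10 and by 0.75. Between genotypes in the cold, limma, edgeR and DESeq2 called 0 of the 19 and 1 had an unadjusted p under 0.05.

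The lists of ER and mitochondrial folding factors, which mark other stress responses linked to ATF4, ATF5 and CHOP, differed in their counts with cold. Of 11 tested mitochondrial chaperones and proteases, 7 were called higher in each genotype and 0 lower, where 17% of all tested genes were called higher in Atf4WT and 14.8% in Atf4AKO iWAT, with a median of 0.57 in Atf4WT and 0.65 in Atf4AKO iWAT. *Hspa9* rose by 1.03 and 0.95, and *Afg3l2*, a protease subunit of the inner membrane, by 0.96 and 1.04. Of 17 ER folding and quality control genes, 2 were called higher and 7 lower in Atf4WT, and 2 higher and 9 lower in Atf4AKO iWAT, where 14.9% and 11% of all tested genes were called lower. *Pdia6*, a protein disulfide isomerase, fell by 0.72 and by 0.81, whereas the cochaperone *Dnajb9* rose by 1.01 and 0.95. Between genotypes in the cold, limma, edgeR and DESeq2 called 0 genes of either list, and 0 had an unadjusted p under 0.05.

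**Figure D3:**
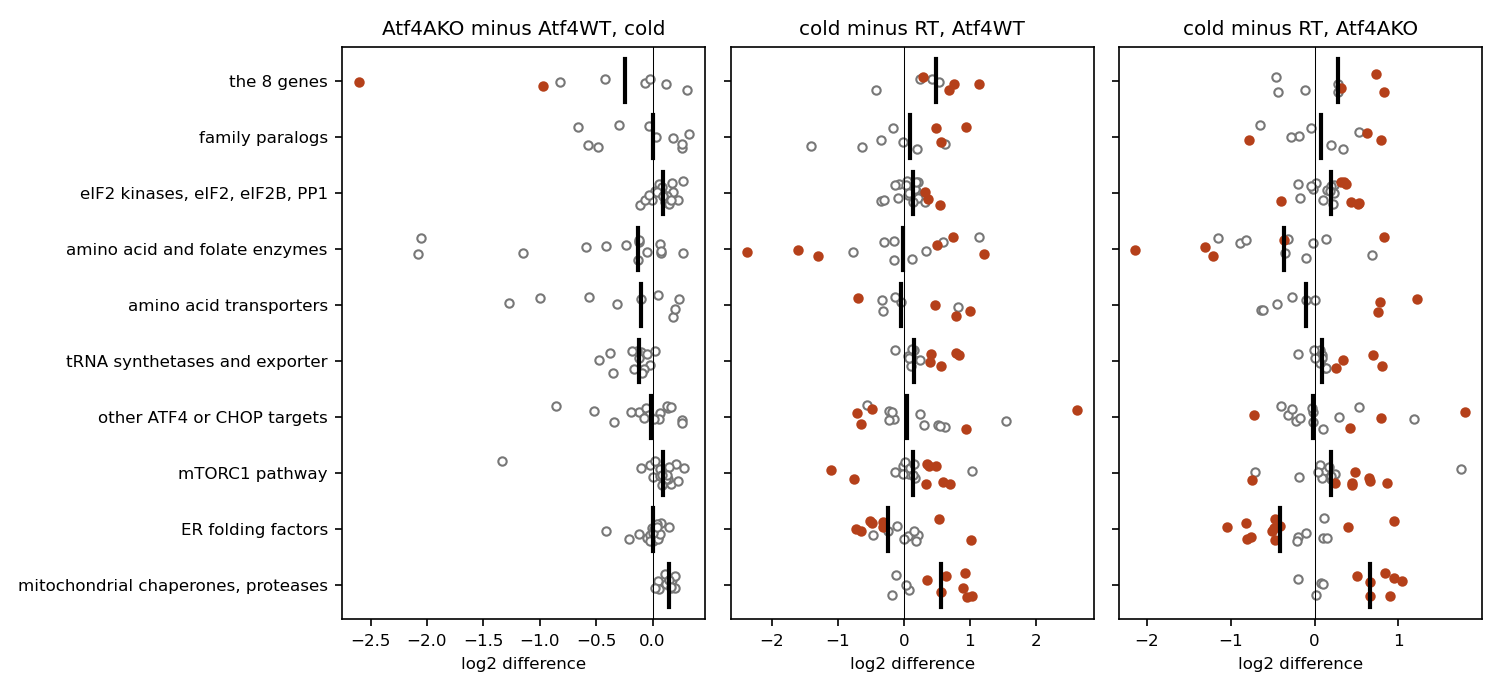
Log2 differences (horizontal axes) of the genes of each list (rows) between genotypes in the cold and between cold and RT in each genotype. Filled points have a limma adjusted p under 0.05, open points do not, and black bars are the medians of the lists. In the left panel the filled points are *Atf4* and *Atf5*, and in the other panels the mitochondrial chaperones and proteases have a median of 0.57 and 0.65 and the ER folding factors of −0.24 and −0.41.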

How the data were processed

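RNA-seq of iWAT was analysed for 12 libraries in 4 groups of 3 biological replicates, taken from the labels. The authors deposited a normalized signal (normalized counts), in which reads per gene are divided by a size factor of the library. Per the paper's methods, reads were filtered with SOAPnuke, mapped to mm10 with STAR, counted with featureCounts and normalized with DESeq2 size factors. Versions and the strand setting of the counting are not given in the sources used here. When a column was divided by its smallest value, 100% of values came out as whole reads (largest deviation 0.000313, tolerance 0.01). By this division the lowest read number in each library is 1.

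Differences were tested in R 4.3.3 with the functions lmFit and eBayes (trended variance) of limma 3.58.1, applied to log2(normalized count + 1). This scale understates changes of low genes. Genes needed a mean of 10 or more normalized counts, and the model held the 4 group means. Genes were called at a Benjamini-Hochberg adjusted p under 0.05 over all 13404 tested genes. The threshold of the paper (fold change over 1.5 and unadjusted p under 0.05) was a second rule. edgeR 4.0.16 (quasi-likelihood) and DESeq2 1.42.0 were run on the recovered reads. Other alternatives were pseudocounts of 0.5 and 5, no filter, a filter at 50, rescaling to the 75th percentile, only the groups compared, array weights, a block for the replicate number, a covariate for the lymphocyte score and leaving out each library. Replicates differed by more than counting error, the chi-square divided by its degrees of freedom being at least 34.5.

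Named genes were the 8 genes, up to 4 called genes with the smallest p per list and comparison, and the 3 genes nearest to *Atf4* and *Atf5*. Other genes were named after their values were seen. The 8 genes and all lists were chosen with earlier results of these data known. Positions came from GENCODE M21. Python 3.11.15, numpy 2.4.6, pandas 2.3.3 and matplotlib 3.10.9 were used for the other steps.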

Additional observations from a re-analysis of the deposited data

How the results depend on the processing

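Depth limits genes with few reads such as *Fgf21*, with RT means of 6.59 and 6.06 normalized counts. Of 760 values of single genes under alternatives, 682 kept their direction and their side of the threshold, 19 lost a call, 14 gained 1 and 45 changed sign, all of the last for values that were not called. Between genotypes in the cold, 0 of the 8 genes were called when only the groups compared were modeled and 0 with the lymphocyte score, and between 1 and 2 when a library was left out. Each of the first 2 of these settings called 0 of all 13404 tested genes. At RT, 1 was called with only the groups compared, and 2 with array weights, with DESeq2 and with the fold threshold. Over all tested genes, the first 3 of these settings called 2, 4 and 4. The replicate block gave 1 at RT, 2 between genotypes in the cold, 5 with cold in Atf4WT, 3 with cold in Atf4AKO iWAT and 0 for the interaction, but same-numbered libraries shared only a number, with correlations of their deviations between −0.19 and 0.39. Over all tested genes, that block called 3, 189, 4858, 4129 and 0 in the same order. With cold in Atf4AKO iWAT, leaving out a library gave between 1 and 4 called genes, with 1 (*Atf5*) without Atf4AKO RT replicate 0. For the interaction, the fold threshold gave 1 (*Atf4*). Signs changed with the lymphocyte score for *Cebpg* (−0.14 between genotypes in the cold, −0.23 for the interaction), *Ddit4* (0.17 and 0.028) and *Sesn2* (0.00061 at RT). They changed with array weights for *Ddit4* (0.15 in the cold, 0.092 for the interaction) and *Sesn2* (0.029 with cold in Atf4AKO iWAT), and with rescaling for *Cebpg* (−0.020 for the interaction). With edgeR and DESeq2 they changed for *Sesn2* at RT (0.00084 and 0.015) and for *Ddit3* in the interaction (0.026 and 0.014). Without 1 library, values between genotypes in the cold ranged from −0.33 to 0.079 for *Ddit3* and −0.38 to 0.29 for *Ddit4*. At RT they ranged from −0.13 to 0.022 for *Ddit3*, −0.43 to 0.061 for *Trib3*, −0.13 to 0.10 for *Ppp1r15a*, −0.050 to 0.31 for *Ddit4* and −0.26 to 0.23 for *Sesn2*. With cold they ranged from −0.0077 to 0.54 for *Trib3* in Atf4WT and −0.35 to 0.14 for *Sesn2* in Atf4AKO iWAT. For the interaction they ranged from −0.29 to 0.12 for *Ddit3*, −0.045 to 0.089 for *Cebpg* and −0.51 to 0.15 for *Ddit4*. The cause of these moves was not tested.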
